A study of Homo sapiens with 3 samples.

Results

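The HOX cluster genes are the 39 human genes whose symbol is HOX followed by A, B, C or D and a number, chosen by symbol alone with antisense transcripts left out, out of 33538 genes in the deposited tables. They were read in day 45 blood vessel organoids, cultures in which pluripotent cells form vessel-like endothelium with its surrounding mural and mesenchymal cells. H1, the established line of human embryonic stem cells behind all organoids, carried in every group a PiggyBac-integrated cassette that makes the neurogenic factor NEUROD1 and GFP when doxycycline is present. The 3 groups had 1 single-cell library each and differed in how long doxycycline (1 µg/ml) was in the medium: not at all (uninduced), for 15 days or for 45 days. All groups received the neurotrophic factors BDNF and NT-3 from day 15 on. When in the culture the 15 days fell is not stated, and 5 to 6 organoids were pooled for each library, so organoids of a group cannot be told apart and no difference below has a replicate check. Values given in a row of 3 belong to the uninduced, the 15-day and the 45-day library, in that order.

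HOX genes encode homeodomain transcription factors that give cells of the trunk and limbs a memory of their position along the body axis. Within each of the 4 loci the genes lie in numbered order, and the low-numbered genes are switched on early and at the head end of the trunk, while the high-numbered ones are switched on late and at the tail end and, in limbs, toward the tips. Fibroblasts, vascular cells and epithelia keep much of this code after development, so the set of HOX genes in a cell is read as its address. In the text, paralogue groups 1 to 3 are called anterior, 4 to 8 central and 9 to 13 posterior. On GRCh38 the HOXA locus holds 11 members on chromosome 7, HOXB 10 at chr17:48528526-48729178, HOXC 9 at chr12:53938765-54056030 and HOXD 9 at chr2:176092891-176190907 (GENCODE 29 gene ends).

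The homeobox, the stretch of 180 bases that encodes the DNA-binding homeodomain, is shown for 3 members on which the results turn: HOXA10, the member with the most UMIs, and HOXA13 and HOXD13, which were both highest in cell cluster 4. Each was located by a scan of the GENCODE 29 transcripts and is written in the sense of the gene: HOXA13 in exon 2 (chr7:27198222-27198401, minus strand), HOXD13 in exon 2 (chr2:176094524-176094703, plus strand) and HOXA10 in exon 2 (chr7:27171947-27172126, minus strand). Capitals mark the codons of the recognition-helix stretch, the part of the fold that enters the major groove of DNA.
HOXA13: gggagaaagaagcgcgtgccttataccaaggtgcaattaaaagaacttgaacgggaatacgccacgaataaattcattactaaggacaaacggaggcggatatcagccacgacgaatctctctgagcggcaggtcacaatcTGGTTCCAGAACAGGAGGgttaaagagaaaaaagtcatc
HOXD13: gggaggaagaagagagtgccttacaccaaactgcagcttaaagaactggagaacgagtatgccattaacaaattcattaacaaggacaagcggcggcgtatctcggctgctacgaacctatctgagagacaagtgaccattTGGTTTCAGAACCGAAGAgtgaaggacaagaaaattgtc
HOXA10: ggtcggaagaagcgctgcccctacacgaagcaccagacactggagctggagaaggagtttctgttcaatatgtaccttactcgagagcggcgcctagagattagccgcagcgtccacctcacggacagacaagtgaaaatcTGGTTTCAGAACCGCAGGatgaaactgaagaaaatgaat
A homeobox was found for all 39 members. HOXA13 and HOXD13, which sit in different loci but share a paralogue group, had 73.3% of bases in common. HOXA10 shared 54.4% with HOXA13, which lies in the same locus, and 57.2% with HOXD13. Over the 42 pairs of one paralogue group the median was 81.7%, against 61.4% over the 172 pairs of one locus. No pair was above 91.1%.

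The promoters of the 3 posterior members are shown because all 3 had many UMIs in mesenchymal-like clusters 4 and 7 and were highest in the 45-day library. The sequences are the 250 bases before the RefSeq transcript start on GRCh38.p14, read in the sense of the gene: HOXA10 chr7:27174321-27174570 (minus strand), HOXA13 chr7:27200092-27200341 (minus strand) and HOXD13 chr2:176092471-176092720 (plus strand). Capitals mark TATAAA on either strand.
HOXA10: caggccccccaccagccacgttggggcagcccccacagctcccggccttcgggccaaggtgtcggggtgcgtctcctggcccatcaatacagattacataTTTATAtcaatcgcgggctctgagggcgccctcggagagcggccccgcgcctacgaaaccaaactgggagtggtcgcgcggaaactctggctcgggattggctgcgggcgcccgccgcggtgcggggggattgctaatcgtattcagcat
HOXA13: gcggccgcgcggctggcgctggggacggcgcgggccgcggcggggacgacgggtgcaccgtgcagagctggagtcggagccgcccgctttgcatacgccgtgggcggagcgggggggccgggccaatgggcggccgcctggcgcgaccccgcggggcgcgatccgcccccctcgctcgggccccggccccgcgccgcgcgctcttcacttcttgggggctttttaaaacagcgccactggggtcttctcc
HOXD13: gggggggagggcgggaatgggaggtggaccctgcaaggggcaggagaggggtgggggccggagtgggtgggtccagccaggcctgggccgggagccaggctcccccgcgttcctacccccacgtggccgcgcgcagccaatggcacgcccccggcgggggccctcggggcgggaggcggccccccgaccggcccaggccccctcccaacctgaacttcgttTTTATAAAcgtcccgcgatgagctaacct
The HOXA13 window had 78% G and C and 40 CpG dinucleotides, the HOXD13 window 74% and 21, and the HOXA10 window 65.2% and 24. TATAAA was found 2 times, overlapping, in the HOXD13 window, 1 time in that of HOXA10 and not in that of HOXA13. The RefSeq table matched 20 of the 39 members, and in windows of 300 bases, which run 50 bases past the start, 3 of those 20 held TATAAA against 11.5% of all 35116 promoters. TTTATNG, a form of the site bound by posterior HOX proteins that can overlap TATAAA, was in 4 of the 20 (20%) and in 9.73% of all. HOXC4 and HOXC5 have the same window in the table, so 1 site there counts for both. TAATTA, a core bound by many homeodomains, was in 2 of the 20 and in 4.84% of all. AGGTCA, a half-site of nuclear receptors, was in none of the 20 and in 13.8% of all. Both strands were searched for each motif.

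After filtering, 8133, 5050 and 8813 cells were kept, with 50314272, 44904519 and 54512275 UMIs and median depths of 5127, 7294.5 and 5551 UMIs per cell. NEUROD1 measured 1.53, 1.51 and 44.3 CPM, where CPM is the UMIs of a gene over all UMIs of the library or class, times 1e6. Reads come from transcript ends, and the end of the cassette RNA need not belong to the annotated gene, so this level checks the labels only in part. The libraries shared 13, 33 and 15 barcodes among all those deposited (uninduced with 15 days, uninduced with 45 days, 15 with 45 days). Cells were grouped into 26 clusters from genes that exclude the HOX loci, and clusters were named from marker genes. Endothelial-like clusters 13 and 20 held 14 and 13 of the 15 endothelial markers, and endothelial-like cells were 5.35, 6.36 and 2.39% of cells. Mesenchymal-like cells were 73.5, 57.6 and 71.8%, and neuron-like cells 0, 5.94 and 3.42%.

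Summed over all cells, the organoids carried a strongly posterior HOX code, led by HOXA10, and it was more posterior with induction for 45 days. HOX genes together took 508 CPM in the uninduced library (95% Poisson interval 502 to 515), 568 CPM in the 15-day library (561 to 575) and 732 CPM in the 45-day library (725 to 739). Posterior members made up 61.7, 66.1 and 77.9% of these UMIs. Intervals here and below cover counting error alone. Relative to the median gene, scaled by median of ratios, the sum was 555, 531 and 715 CPM, so the order of the uninduced and the 15-day library turned while the 45-day library stayed the highest. Anterior members made up 14.0, 14.2 and 8.49% of HOX UMIs and central members 24.3, 19.7 and 13.7%, so both shares were lowest in the 45-day library.

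The loci differed in direction. HOXA summed to 268, 355 and 522 CPM. Over whole libraries HOXB ran the other way, at 152, 144 and 102 CPM, while within mesenchymal-like clusters its direction was mixed, as given below. HOXC was at 40.2 CPM in the uninduced library and at 21.6 and 21.7 CPM in the induced ones, and HOXD was at 48.3, 46.7 and 86.2 CPM. Thus the 45-day library was highest for HOXA and HOXD and lowest for HOXB. The mean paralogue number, weighted by UMIs, was 8.39, 8.51 and 9.42. In droplets a UMI stands for a captured molecule, with no scaling by gene length. Even so, capture near the 3′ end differs between genes, so levels of different members are compared only as UMIs.

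**Figure D1:**
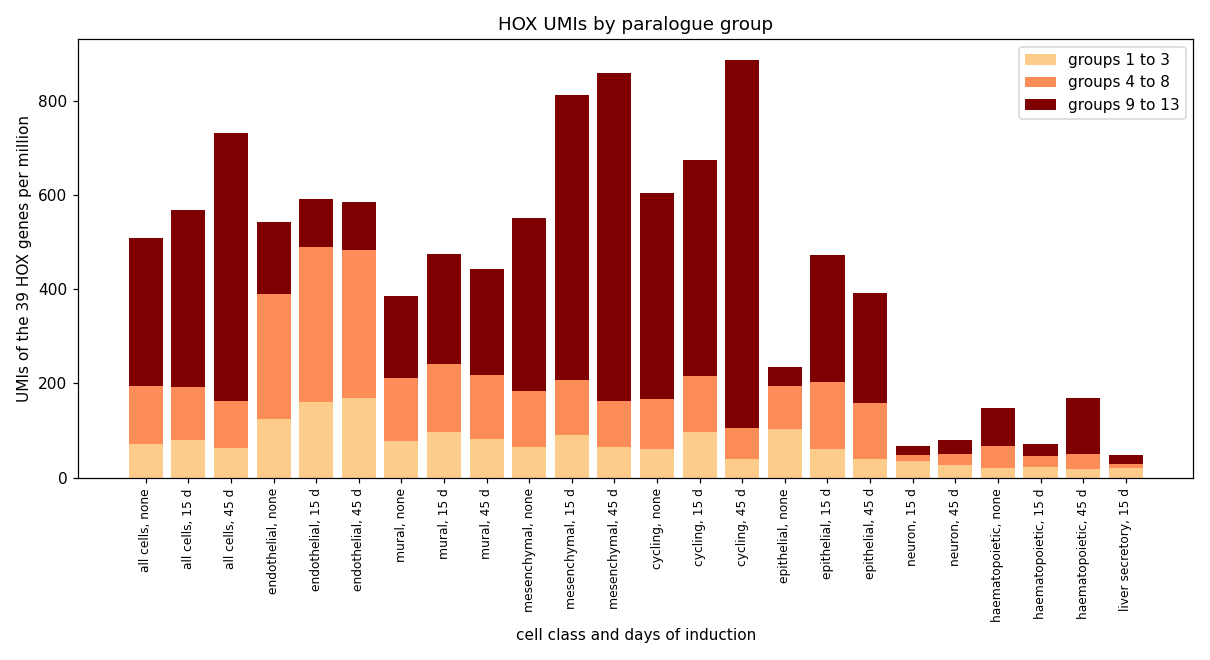
CPM of HOX UMIs split into anterior (1 to 3), central (4 to 8) and posterior (9 to 13) paralogue groups, stacked, for all cells and for each class of cells in each library with at least 50 cells. The posterior part takes up most of the bar in mesenchymal-like and cycling cells, and the central part is the longest of the 3 in endothelial-like cells.

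Among posterior members, HOXA10, a gene of the uterus, the limb and the lumbar trunk, had the most UMIs of all members in each library, at 128, 176 and 266 CPM. The 45-day library was 2.08-fold above the uninduced one (95% interval 2.02 to 2.15). HOXA13, which patterns the digits, the hindgut and the genital tubercle, was at 43.4, 42.4 and 94.6 CPM. The first pair of libraries lay close together, and the 45-day library was 2.18-fold above the uninduced (2.07 to 2.29) and 2.23-fold above the 15-day library (2.12 to 2.35). HOXD13, its partner in digit formation, was at 11.9, 9.58 and 40 CPM, which puts the 45-day library 3.36-fold (3.07 to 3.68) and 4.17-fold (3.76 to 4.64) above the others.

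HOXA9, known from blood stem cells and endothelium, measured 22.4, 28.1 and 48.5 CPM and was thus highest at 45 days (2.17-fold over uninduced, 2.02 to 2.33). HOXA11, a gene of the forearm and the uterus, was at 39.7, 55.7 and 53.1 CPM, so both induced libraries were higher and close to each other. Its exons overlap HOXA11-AS on the other strand, HOXA10 and HOXA9 share exon bases with the readthrough gene AC004080.3, and whether the counting used strand is not given in the sources used here. In all, 14 of the 39 members share same-strand exon bases with another counted gene, HOXB3, HOXB4, HOXB6, HOXC6, HOXD10 and HOXD11 among them, so counts of those members are less certain.

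Of the anterior and central members, HOXB2, a regulator of hindbrain segments, was at 31.8, 35.3 and 24.2 CPM, lowest at 45 days. HOXB3, also a hindbrain and neck-level gene, was at 22.6, 19.4 and 14.9 CPM. HOXB7, a trunk-level gene, was at 27.4, 19.8 and 14.2 CPM. For both genes the uninduced library was above the 45-day library, with the 15-day library between. HOXA5, a gene of the neck and lung level, ran against the central HOXB members, at 6.4, 13.2 and 16.3 CPM (2.54-fold over uninduced at 45 days, 2.23 to 2.89).

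**Figure D2:**
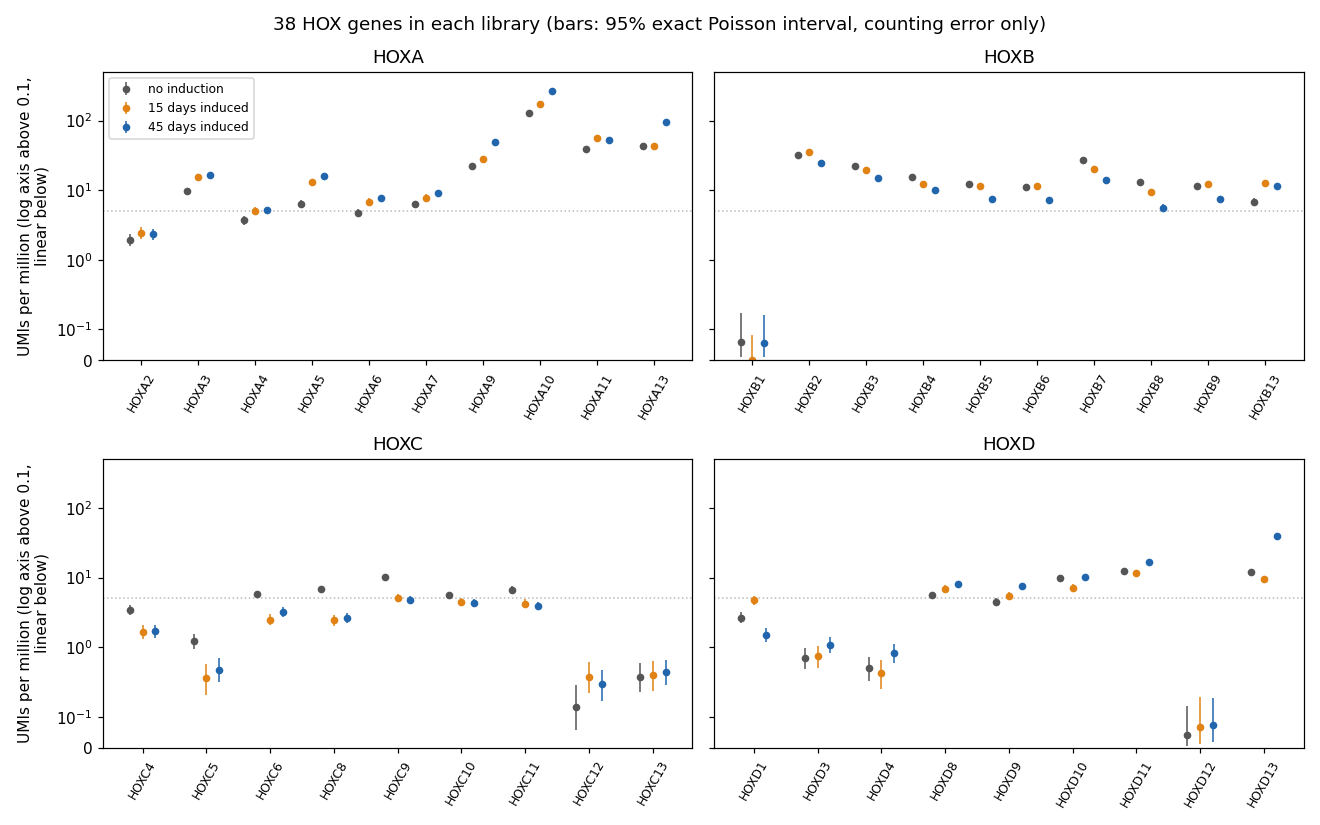
CPM of 38 of the 39 members in each library, in 4 panels by locus and ordered by paralogue number, on an axis that is logarithmic above 0.1 CPM and linear below, with 95% Poisson intervals and a dotted line at 5 CPM. In the HOXA panel the 45-day points of HOXA9, HOXA10 and HOXA13 lie above the others, and in the HOXC panel the uninduced points are mostly the highest.

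The remaining members did not reach 20 CPM in any library. In the HOXA locus, HOXA2, HOXA4, HOXA6 and HOXA7 lay between 1.95 and 9.26 CPM, and HOXA3, a gene of the pharyngeal arches, was at 9.76, 15.3 and 16.6 CPM. In HOXB, HOXB4, HOXB5, HOXB6, HOXB8 and HOXB9 lay between 5.58 and 15.3 CPM, and each was lowest at 45 days. HOXB13, which lies far from the rest of its locus and is known from the prostate, was at 6.84, 12.7 and 11.5 CPM. HOXB1 had 3, 0 and 3 UMIs and HOXD12 had 2, 3 and 4 UMIs, where 3 UMIs is the limit that a count of 0 allows. Of the 9 HOXC members, 7 were highest without induction: HOXC4, HOXC5, HOXC6, HOXC8, HOXC9, HOXC10 and HOXC11, the cervical to lumbar genes of the spinal cord, at 1.21 to 10.1 CPM in the uninduced library. HOXC12 and HOXC13, the hair and nail gene, were at or under 0.44 CPM. In HOXD, HOXD11 was at 12.4, 11.7 and 16.8 CPM, HOXD10 at 10, 7.17 and 10.3 CPM, and HOXD8 and HOXD9 were highest at 45 days with 8.11 and 7.47 CPM. HOXD1 was at 2.66, 4.7 and 1.5 CPM, and HOXD3 and HOXD4 were at or under 1.08 CPM.

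A member was counted as apart between libraries when the log2 ratio of CPM plus 1 reached 1 either way, among genes with 5 CPM in at least 1 of the 2 libraries. For 45 days against none, 28 of the 39 members reached that floor, 5 were higher (HOXA5, HOXA9, HOXA10, HOXA13 and HOXD13), where 3.11% of all 11539 genes were, and 2 were lower (HOXB8 and HOXC8), where 2.23% of genes were. Their median log2 ratio was 0.21, against 0.16 over all genes. Split by position, the 13 posterior members had a median of 0.41, the 12 central members −0.56 and the 3 anterior members −0.38. HOXB8, known from haematopoietic progenitors and trunk patterning, was at 12.9, 9.49 and 5.58 CPM, 2.32-fold lower at 45 days (2.02 to 2.67). HOXC8, a brachial and thoracic gene, was at 6.82, 2.43 and 2.66 CPM, 2.56-fold lower at 45 days (2.10 to 3.13) and 2.81-fold lower at 15 days (2.26 to 3.52).

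For 15 days against none, 28 members reached the floor, none was higher, where 7.23% of genes were, and 1 was lower (HOXC8), where 1.48% of genes were. The members' median log2 ratio was 0.00 against 0.24 over all genes. For 45 against 15 days, 24 members reached the floor, 2 were higher (HOXA13 and HOXD13), where 0.462% of genes were, and none was lower, where 3.52% of genes were. The comparisons share libraries, so their counts are not independent. Scaling by median of ratios, which moves all log2 ratios down by 0.15 for 45 days and 0.22 for 15 days against none, left HOXA5 and HOXD13 as the higher members at 45 days and gave 4 lower ones (HOXB7, HOXB8, HOXC8 and HOXC9). The share of all genes was not counted under this scaling, so these counts have no background beside them.

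The classes of cells carried different HOX codes (Leiden clusters, HOX loci left out). Endothelial-like cells had a central HOXB code: HOX genes summed to 542, 592 and 585 CPM, of which only 28.2, 17.4 and 17.5% was posterior. HOXB alone gave 326, 398 and 384 CPM. Mural-like cells, which wrap vessels, were mixed, with sums of 386, 475 and 443 CPM and posterior shares of 45.0, 49.4 and 50.9%. Mesenchymal-like cells were the most posterior of the non-cycling classes, with sums of 551, 812 and 858 CPM and posterior shares of 66.7, 74.6 and 81.1%. Cycling cells had sums of 603, 674 and 887 CPM and posterior shares of 72.4, 68.1 and 88.2%. Each value is per UMI of the class, so the number of cells in a class does not enter it, while in whole libraries fewer cells of a type and less RNA per cell cannot be told apart.

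Neuron-like cells, present in the induced libraries, had 65.9 and 79.2 CPM there, and the 199 liver-led cells of the 15-day library had 47.8 CPM. Haematopoietic-like cells, taken as the background of free RNA although blood cells can express HOX genes, had 147, 72.1 and 168 CPM on 53, 49 and 85 UMIs. The neuron-like and liver-led sums were thus at or below that background. HOXC4, a gene of the cervical spinal cord, was at 5.71 and 9.61 CPM in neuron-like cells (30 and 29 UMIs) and had 0 UMIs in haematopoietic-like cells, whose count of 0 allows up to 4.41 CPM at 15 days and 5.94 CPM at 45 days. HOXB2 was the leading member of neuron-like cells, at 23.2 and 15.6 CPM, against 10.3 and 15.8 CPM in haematopoietic-like cells, so the 45-day value was at that background. Of the neuron-like clusters, cluster 18 was shallow, with a median of 2362 UMIs, and had 168 CPM, while the deep cluster 19 had 56.9 CPM.

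**Figure D3:**
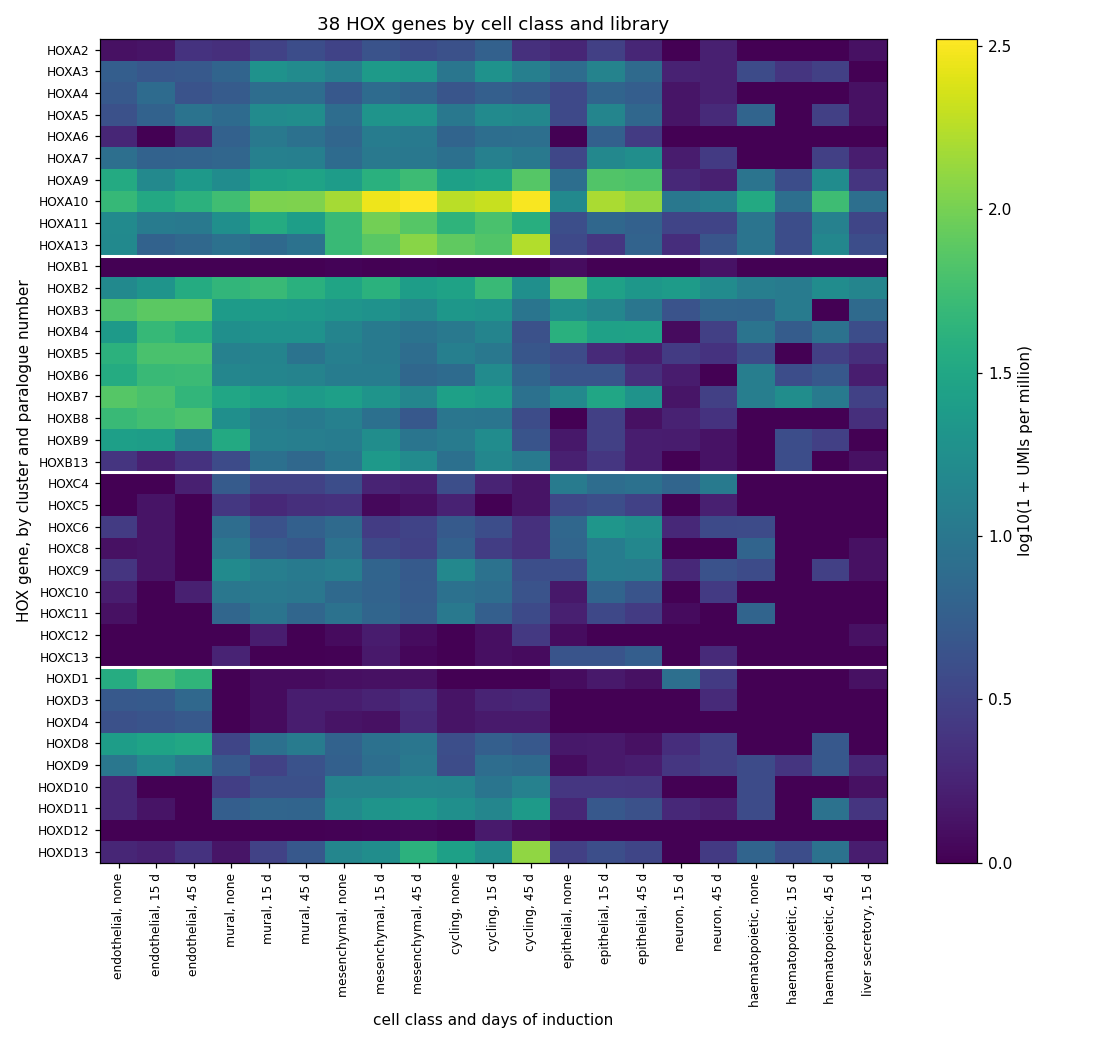
Heat map of log10(1 + CPM) for 38 of the 39 members in rows, ordered by locus and paralogue number, and for each class and library with at least 50 cells in columns. HOXB3 to HOXB8 and HOXD1 stand out in the endothelial-like columns, and HOXA9 to HOXA13 in the mesenchymal-like and cycling columns.

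In endothelial-like cells HOXB3, which has been tied to capillary growth, was at 64.3, 75.6 and 76.9 CPM, against 19.9, 18.3 and 13.9 CPM in mesenchymal-like cells. HOXB5, an activator of the VEGF receptor gene KDR, was at 41.1, 62.3 and 61.4 CPM, and HOXB6 at 35.0, 49.9 and 51.3 CPM. Both were higher in the induced libraries. HOXB7 was lowest at 45 days, at 71.1, 61.9 and 45.2 CPM, and HOXB8 was at 50.5, 56.6 and 62.7 CPM. HOXB4, a gene of blood stem cells, was at 22.6, 47.5 and 38.4 CPM. In cycling cells HOXB3 to HOXB8 were at most 26.4 CPM. HOXC was low in endothelial-like cells, at 4.41, 1.41 and 1.35 CPM in sum, while mural-like cells held 52.7, 40.5 and 36.4 CPM of it.

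HOXD1, the first gene of the HOXD locus, was an endothelial-like member: 35.8, 57.3 and 43.8 CPM, against 0.273, 0.284 and 0.285 CPM in mesenchymal-like cells and 0, 0.195 and 0.195 CPM in mural-like cells. It was also at 7.43 CPM (39 UMIs, 5.28 to 10.2) in neuron-like cells at 15 days and at 1.66 CPM (5 UMIs) at 45 days, against 0 UMIs in haematopoietic-like cells. In endothelial-like cells the neighbour gene HOXD3, which activates integrin genes in endothelium, was at 4.11, 4.22 and 6.07 CPM, HOXD4 at 3.23, 3.52 and 4.05 CPM, and HOXD8, which acts in lymphatic vessels, at 24.1, 28.1 and 31.7 CPM. At the posterior end of the locus HOXD10, HOXD11 and HOXD13 were at 1.35 CPM or less. Both endothelial-like clusters carried HOXD1, at 46.6 CPM in cluster 13 and 40.4 CPM in cluster 20. HOXD1 overlaps the non-coding gene HAGLR on the other strand. The posterior HOXA members did not follow the whole library in endothelial-like cells, and each was highest without induction. HOXA10 was at 48.2, 32.4 and 40.5 CPM, HOXA9 at 34.1, 14.4 and 21.6 CPM, and HOXA13 at 14.7, 5.28 and 6.07 CPM. In haematopoietic-like cells, taken as the background of free RNA, HOXA10 was at 33.3, 7.36 and 53.5 CPM. HOXA9 was at 8.32, 2.94 and 15.8 CPM there, and HOXA13 at 8.32, 2.94 and 13.9 CPM on 3, 2 and 7 UMIs. The 45-day HOXA10 and HOXA13 levels of endothelial-like cells were thus below that background. Whether free RNA gave the endothelial-like levels was not tested. The uninduced HOXA9 level was above the 23.7 CPM of uninduced mesenchymal-like and the 26.2 CPM of uninduced cycling cells.

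In mesenchymal-like cells HOXA10 was at 153, 287 and 332 CPM. HOXA11 was at 49.9, 95.3 and 71.7 CPM and HOXA9 at 23.7, 38.9 and 52.4 CPM. HOXA13 was at 50.03, 74.3 and 117 CPM and HOXD13 at 13.3, 16.2 and 40.9 CPM, so the 15-day library lay between the others for HOXA13 and near the uninduced library for HOXD13. The HOXA sum was 315, 571 and 643 CPM, and the HOXC sum was 44.2, 22.8 and 18.6 CPM. HOXB2 was at 28.8, 40.2 and 24.2 CPM, HOXB7 at 25.2, 19.3 and 13.3 CPM, and HOXB5, HOXB6 and HOXB8 at 3.96 to 11.6 CPM.

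For 45 days against none within mesenchymal-like cells, 28 members reached the floor, 5 were higher (HOXA5, HOXA9, HOXA10, HOXA13 and HOXD13), where 1.88% of all genes were, and 4 were lower (HOXB8, HOXC6, HOXC8 and HOXC9, by 2.92-, 2.94-, 3.81- and 2.64-fold), where 2.17% of genes were. For 15 days against none, 2 of 28 were higher (HOXA5 and HOXB13), where 3.51% of genes were, and 2 were lower (HOXC6 and HOXC8), where 2.1% of genes were. For 45 against 15 days, 1 of 26 was higher (HOXD13, 2.53-fold, 2.25 to 2.86), where 0.453% of genes were, and none was lower, where 0.831% of genes were. Without clusters 4 and 7, described next, 3 members were higher at 45 days than without induction (HOXA3, HOXA5 and HOXA10), and with every shared cluster weighted equally none was higher or lower, although HOXA5 came to a log2 ratio of 0.99. With equal weights HOXB8 was at 0.626, HOXC6 at 0.671, HOXC8 at 0.451 and HOXC9 at 0.485 times the uninduced level. Within the 10 shared clusters HOXB8 was lower in 8 and higher in 2, with an interval below 1 in none. The share of all genes was not counted without clusters 4 and 7 or with equal weights.

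Mural-like cells held HOXA10 at 55.0, 106 and 106 CPM, HOXB2 at 44.5, 50.6 and 38.6 CPM and HOXB9, a thoracic gene, at 33.2, 11.7 and 10.9 CPM. The class is made of 2 clusters in different proportions: cluster 24, where TAGLN and ACTA2 were among the leading genes, held 55, 17 and 47 cells and had HOXB9 at 57.5 CPM uninduced, and within the larger cluster 3 HOXB9 was at 23.5, 10.6 and 10.2 CPM. Epithelial-like cells had HOXB2 as leading member without induction, at 70.4 CPM against 27.0 and 20.6 CPM in the induced libraries, and HOXA10 as leading member in the latter, at 159 and 129 CPM against 14.9 CPM. Different clusters hold this class: cluster 17, led by GABRP and SPRR3, gave 262 of the 459 uninduced cells, and cluster 9, led by KRT17, KRT15 and KRT5, gave 217 of 245 and 431 of 503 in the induced libraries. Within cluster 9 HOXA10 was at 30.1, 184 and 162 CPM and HOXA9 at 22.2, 79.6 and 80.7 CPM. HOXC6, HOXC8 and HOXC9 were also present in epithelial-like cells, at 3.07 to 20.0 CPM, and HOXC13, the hair and nail gene, had its highest class level there, at 3.51, 3.50 and 4.72 CPM.

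Within the mesenchymal-like class, the 11 clusters fell along a range from central to fully posterior codes. Cluster 4, led by LHX9 and LHX2, LIM homeobox genes of the limb bud, had 1049 CPM of HOX UMIs, of which 94.0% was posterior, with HOXA10 at 363 CPM, HOXA13 at 310 CPM and HOXD13 at 128 CPM. Its HOXB sum was 39.9 CPM and its HOXC sum 5.99 CPM. Cluster 7, led by PRRX1 and GDF10, was similar, with 92.8% posterior, HOXA13 at 201 CPM and HOXD13 at 48.3 CPM. HOXA13 was among the 10 leading genes of both clusters although no HOX gene was used to form them. Cluster 4 held 110, 242 and 1085 cells and cluster 7 held 305, 50 and 790 cells, so both were largest in the 45-day library.

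Cluster 0, led by CLDN11 and MEOX2, had the highest HOXA10, at 393 CPM, and the highest HOXA11, at 110 CPM, but HOXA13 at 42.1 CPM. It held 254, 910 and 1614 cells. Cluster 1, led by PTX3 and FOXF2 and mostly uninduced (1773, 68 and 264 cells), had HOXA13 at 87.2 CPM and HOXD13 at 31.7 CPM. Cluster 10, led by HAND1 and FOXF1, genes of visceral and lateral mesoderm, combined a high HOXB sum of 375 CPM with HOXA10 at 255 CPM and almost no HOXD, at 10.7 CPM in sum. HOXB9 there was at 51.9 CPM and HOXD13 at 1.37 CPM.

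Cluster 14, led by COL15A1, FMOD and DLK1, was the least posterior mesenchymal-like cluster and lay mostly in the uninduced library (484, 1 and 27 cells). Its posterior share was 19.2%, its HOXA sum 51.5 CPM, its HOXB sum 258 CPM and its HOXC sum 67.5 CPM. HOXC8 was at 28.6 CPM and HOXC6 at 18.5 CPM in it. The cycling clusters repeated the range: clusters 12 and 16 had HOXA13 at 171 and 129 CPM and HOXD13 at 86.4 and 91.8 CPM, and cluster 15 had 17.2 and 2.10 CPM.

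**Figure D4:**
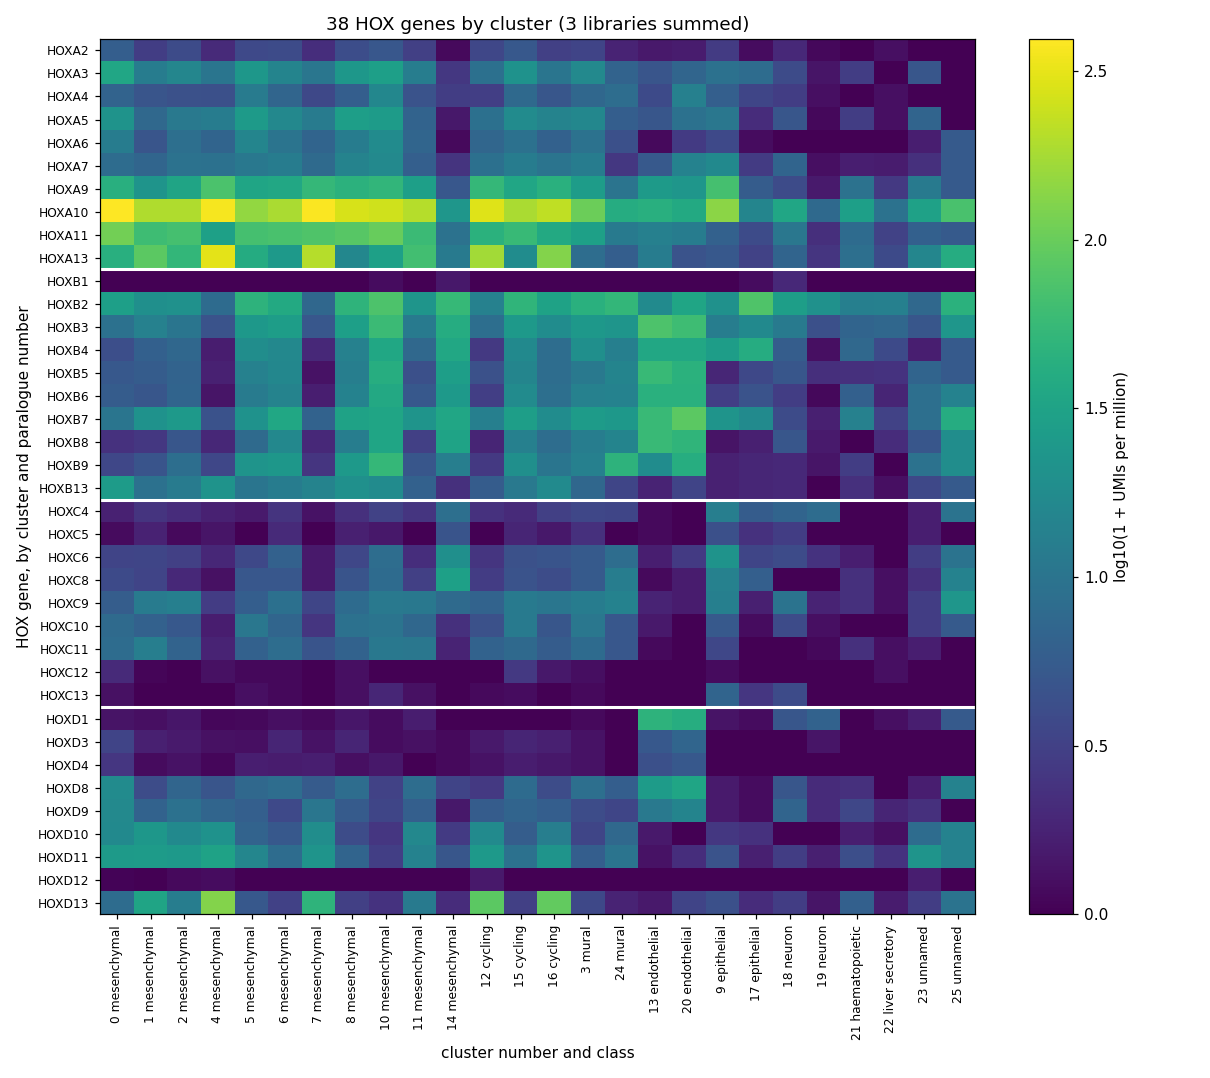
Heat map of log10(1 + CPM) for 38 of the 39 members in rows and the 26 clusters in columns, with the libraries summed. Clusters 4 and 7 combine high HOXA9 to HOXA13 and HOXD13 with low HOXB and HOXC, and clusters 13 and 20 show HOXB3 to HOXB8 with HOXD1.

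Since the libraries hold different shares of these clusters, members were compared within each mesenchymal-like cluster with at least 50 cells in both libraries. HOXA10 was higher at 45 days than without induction in 10 of 10 clusters, by 1.29- to 1.79-fold (median 1.47), with an interval above 1 in each. The HOXC sum was lower in 10 of 10, at 0.158 to 0.8 times the uninduced level (median 0.526), with an interval below 1 in 9. At 15 days HOXA10 was higher than without induction in 9 of 9 clusters (interval above 1 in 6) and the HOXC sum lower in 9 of 9 (interval below 1 in 6, median 0.516). HOXA5 was higher at 45 days in 10 of 10 clusters, with an interval above 1 in 6. The HOXB sum was higher at 45 days than without induction in 4 and lower in 6 of 10 clusters (median 0.961). Its interval was above 1 in 1 cluster and below 1 in 1. With equal weights it was 130 against 129 CPM. At 15 days against none the HOXB sum was higher in 8 of 9 clusters, with an interval above 1 in 3.

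For the group 13 members the whole libraries and the clusters gave different pictures. HOXA13 was higher at 45 days than without induction in 7 of 10 clusters, with an interval above 1 in 4 and a median of 1.21-fold. It was 326 against 257 CPM in cluster 4, 217 against 143 CPM in cluster 7 and 26.1 against 28.5 CPM in cluster 0. HOXD13 was higher in 9 of 10, with an interval above 1 in 4 and a median of 1.93-fold. In cluster 4 it was 141 against 114 CPM, with an interval for the fold of 0.981 to 1.59, and in cluster 7 it was 53.9 against 17 CPM. At 15 days against none, where the whole libraries were close for HOXA13 (42.4 against 43.4 CPM), HOXA13 was higher in 9 of 9 clusters (interval above 1 in 4, median 1.64-fold). HOXD13, at 9.58 against 11.9 CPM in the whole libraries, was higher in 6 of 9 clusters (interval above 1 in 2, median 1.69-fold). At 45 against 15 days HOXA13 was lower in 7 of 9 clusters, the reverse of the comparison of whole libraries. With shared clusters weighted equally, HOXA10 averaged 302 CPM at 45 days against 202 CPM without induction (1.5-fold), HOXA13 94.4 against 69.3 CPM (1.36-fold) and HOXD13 28.7 against 19.1 CPM (1.51-fold). The median gene of mesenchymal-like cells was higher by 0.19 on the log2 scale at 45 days and by 0.21 at 15 days than without induction, and these folds are not corrected for it.

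**Figure D5:**
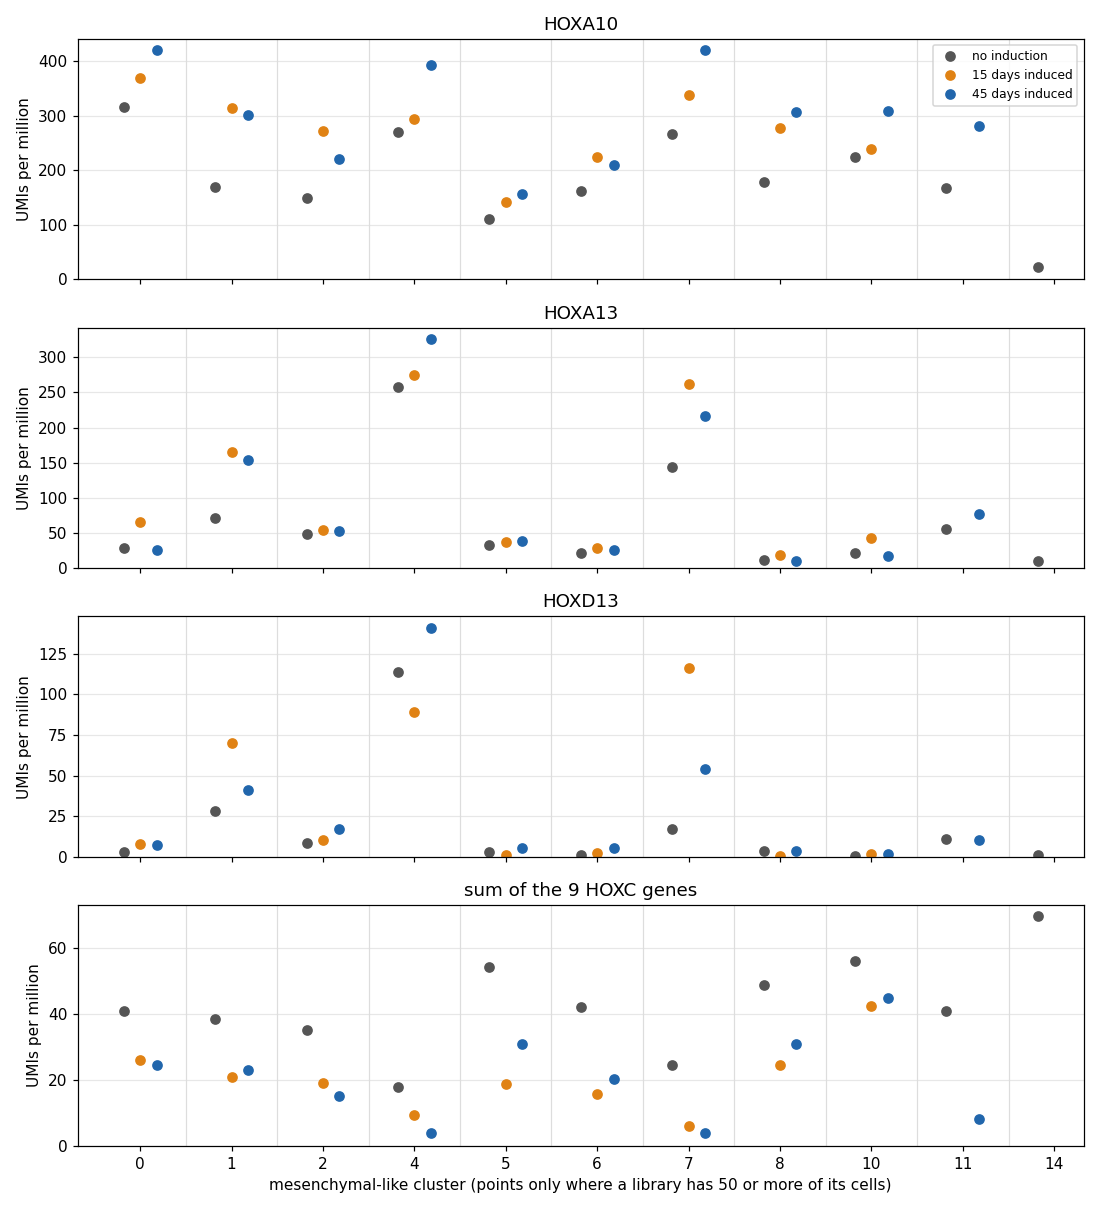
CPM of HOXA10, HOXA13, HOXD13 and the sum of the HOXC members in each of the 11 mesenchymal-like clusters, 1 point per library with at least 50 cells in the cluster and no error bars drawn. The 45-day points of HOXA10 lie above the uninduced points in 10 of 10 clusters, and those of HOXC below.

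In single cells thinned to 2000 UMIs, HOXA10 was found in 27.1, 40.6 and 44.6% of mesenchymal-like cells, against 3.39, 0 and 1.43% of haematopoietic-like cells. HOXA13 was found in 9.94, 12.2 and 17.1%, against 1.69, 1.27 and 1.43%, and HOXD13 in 2.84, 2.56 and 5.86%, against 0, 1.27 and 1.43%. The 0 of 79 cells for HOXA10 and the 0 of 59 cells for HOXD13 allow shares of up to 3.8 and 5.08%, so the uninduced share of HOXD13 was under that limit. By summed UMIs HOXD13 in mesenchymal-like cells (12.1 to 14.6 CPM uninduced, 14.5 to 18.0 CPM at 15 days) lay above endothelial-like cells, whose intervals ended at 2.58 and 2.54 CPM. Thinning left out 164, 100 and 286 mesenchymal-like cells; the median depths before it were 4800.5, 6886 and 5308.5 UMIs in mesenchymal-like and 4330, 7723 and 5733.5 UMIs in haematopoietic-like cells. Without thinning HOXA13 was found in 19.9, 27.9 and 31.8% of mesenchymal-like cells.

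HOXD1 was found in 6.63, 9.15 and 10.1% of thinned endothelial-like cells (20.9, 33.3 and 20.9% unthinned) and in 0.0688, 0.0712 and 0.0331% of mesenchymal-like cells. Among thinned mesenchymal-like cells of all libraries, HOXD13 was found in 10.6% of the 1955 cells with a HOXA13 UMI and in 3.02% of the 12713 others. The gap was there in each library, at 6.75 against 2.41% without induction, 6.14 against 2.07% at 15 days and 14.2 against 4.13% at 45 days. HOXB3 to HOXB9 ran the other way, with a UMI in 6.50% of cells with HOXA13 and in 14.4% of the others. Per library this was 9.86 against 15.1%, 9.36 against 17.6% and 3.67 against 11.9%. HOXA10 was found in 44.2% of cells with HOXA13 and in 35.7% of the others. HOXD13 transcripts were thus found more often in cells with HOXA13 than in the others at equal depth, and transcripts of HOXB3 to HOXB9 less often. The cells were pooled over mesenchymal-like clusters that differ in these members, and cells within a cluster were not compared. The differences between cells with and without HOXA13 were not tested, since cells of a library are not replicates.

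Genes that work with or around the HOX loci were read from lists by the same rule. Of the 9 TALE cofactors, homeodomain partners that bind DNA with HOX proteins, 8 reached the floor and none was apart between 45 days and none. At 15 days against none 1 of 8 was higher, PBX3, where 7.23% of all genes were. PBX3 was at 53.5, 116 and 83.5 CPM, PBX2 at 39.4, 50.5 and 46.8 CPM, and MEIS2 at 248, 245 and 192 CPM. In neuron-like cells of all libraries PBX3 was at 554 CPM. In mesenchymal-like cells it was at 60.1, 79.5 and 61.2 CPM, and no cofactor was apart there. Of the 12 genes of upstream trunk patterning, 6 reached the floor and none was apart between 45 days and none. At 15 days against none 1 of 7 was higher, CYP26A1, which degrades retinoic acid, at 1.19, 23.9 and 1.45 CPM, where 7.23% of all genes were. It was at 0.364, 3.36 and 1.71 CPM in mesenchymal-like cells. CYP26B1, of the same family, was at 20.7, 15.3 and 32.9 CPM (19.5, 18.8 and 40.1 CPM in mesenchymal-like cells, where it was counted as higher at 45 days than in either other library), and GDF11, the signal for the trunk-to-tail switch, at 31.7, 40.5 and 48.4 CPM. The retinoic acid receptor RARB was at 23.6, 28.9 and 22.4 CPM, and ALDH1A2, which makes retinoic acid, at 44.1, 51.4 and 44.2 CPM. All 13 chromatin regulators of the loci reached the floor and none was apart between the libraries at 45 days and none, but within mesenchymal-like cells 1 was higher, CBX7, at 5.71, 11.2 and 14.1 CPM, where 1.88% of all genes were. The Polycomb genes CBX7 (5.84, 10 and 11.9 CPM) and RNF2 (29.3, 28.6 and 31.5 CPM) and the H3K27 demethylases KDM6B (57.1, 80.1 and 88.5 CPM) and KDM6A (9.4, 12.3 and 9.96 CPM) were at the ends of their range.

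The limb genes were apart in part. Of 17 limb bud partners 13 reached the floor and 5 were higher at 45 days than without induction, where 3.11% of all genes were, and none lower, where 2.23% were. At 15 days against none, 3 of 12 were higher (7.23% of genes) and 1 lower (1.48%). Within mesenchymal-like cells 5 of 13 were higher at 45 days (1.88% of genes) and none lower (2.17%). There 6 of 13 were higher at 15 days (3.51%) and 1 lower (2.1%). LHX9 was at 9.8, 15.3 and 93.0 CPM and LHX2 at 6.2, 25.3 and 28.8 CPM, while GREM1, a BMP antagonist, was at 21.7, 5.86 and 19.2 CPM and SALL4 at 6.9, 12.3 and 5.87 CPM. LHX9 and LHX2 led cluster 4, where HOXA13 and HOXD13 were highest. Of the 3 limb type genes, PITX1, which specifies hindlimb, was at 234, 46.0 and 135 CPM, TBX4, its hindlimb target, at 12.7, 5.68 and 11 CPM, and TBX5, the forelimb gene, at 3.84, 0.468 and 1.72 CPM. None of them was apart at 45 days against none. At 15 days against none, both members at the floor, PITX1 and TBX4, were lower, where 1.48% of all genes were. Within mesenchymal-like cells 1 of these 2, PITX1, was lower, where 2.1% of genes were.

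The non-coding RNAs and neighbours followed the loci in part. Of 14 non-coding RNAs 6 reached the floor, and 2 were higher and 2 lower at 45 days than without induction, against the same 3.11 and 2.23% of all genes. HOXA11-AS was at 12.5, 18.9 and 42.6 CPM and HOTTIP, transcribed from the tip of HOXA beside HOXA13, at 2.48, 2.87 and 6.55 CPM. HOXB-AS3 was at 5.82, 3.79 and 1.52 CPM and HOTAIR, from HOXC, at 7.49, 4.48 and 3.12 CPM. The HOXA pair was thus highest at 45 days and the HOXB and HOXC pair lowest. HOXA11, which overlaps HOXA11-AS, was highest at 15 days (39.7, 55.7 and 53.1 CPM) and was lower at 45 than at 15 days in 9 of 9 mesenchymal-like clusters (interval below 1 in 4). Of 13 neighbours outside the loci 10 reached the floor and 2 were higher, against 3.11% of all genes: EVX2, next to HOXD13, at 1.73, 1.07 and 5.08 CPM, and PRAC1, next to HOXB13, at 27.0, 54.1 and 60.4 CPM. SMUG1 (14.0, 16.3 and 13.3 CPM) and SKAP2 (28.1, 33.0 and 26.9 CPM) were at the low end.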

How the data were processed

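The authors deposited, for 3 libraries, tables of UMI counts by gene and barcode that are not normalized. They were made with Cell Ranger 3.0.0 on GRCh38, per the submitters' processing notes. The matrix headers name software version 3.0.1. The annotation behind the counts is not given in the sources used here. Barcodes with at least 1000 UMIs, 500 genes and no more than 20% mitochondrial UMIs were kept, and predicted doublets removed at 0.8% per 1000 cells. Cells were clustered with leidenalg 0.10.2 (2000 variable genes without the HOX loci, 30 components, 15 neighbours weighted by shared neighbours, Leiden resolution 1.0). Clusters were named from fixed markers (at least 3 and 1/3 of a list, each 2-fold over other cells and in 10% of cells). Clusters still without a name were called mesenchymal-like on at least 3 markers. Their 2-fold rule was set against the named clusters, with mural-like and cycling ones left out. The checks on leading and liver genes were set after the data were seen. Sums are scaled to CPM (UMIs over the UMI total), with exact 95% intervals from scipy 1.17.1. With 1 library per group no test was run. The calling step was tested on counts simulated from the uninduced library with known folds and counting error alone. That test says nothing about variation between libraries or in their cell types. By rule, values by library were given for members at 20 CPM and by class for members at 50 CPM; other members printed with values were chosen after their values were seen. The members, lists and rules were chosen with earlier results of these data known. Alternatives covered filters, doublets, scaling, pseudocount, floor, clustering and thinning. 1 member and a few other items are not reported here by name; the member is part of all sums and counts.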

Additional observations from a re-analysis of the deposited data

Results flagged for a closer look

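A few members had a ratio to the uninduced library that lay at least 1.5-fold on opposite sides of 1 in different classes of cells. The differences between classes were not tested, since each group has 1 library. HOXA9 at 45 days over uninduced was 1.77 in mural-like, 2.21 in mesenchymal-like and 9.01 in epithelial-like cells, but 0.633 in endothelial-like cells. At 15 days over uninduced the same gene was at 1.62, 1.64 and 9.33 in those classes and at 0.423 in endothelial-like cells. HOXA13 at 45 days over uninduced was 2.34 in mesenchymal-like and 0.413 in endothelial-like cells, the latter on 9 and 50 UMIs. Those endothelial-like levels were 6.07 CPM at 45 days and 14.7 CPM uninduced. In haematopoietic-like cells, the background of free RNA, HOXA13 was at 13.9 and 8.32 CPM (7 and 3 UMIs). The 45-day endothelial-like level was thus below that background. Whether free RNA gave the endothelial-like ratio was not tested. HOXB2 at 45 days over uninduced was 2.34 in endothelial-like and 0.293 in epithelial-like cells. The epithelial-like ratios compare a class that cluster 17 mostly fills without induction and cluster 9 in the induced libraries.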

How the results depend on the processing

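No paired analysis was possible because each group has 1 library. The equal weighting, the removal of clusters 4 and 7 and the removal of cluster 17 were chosen after seeing the data. In the order uninduced, 15 and 45 days, the HOX sum was 519, 583 and 743 CPM at 10% mitochondrial UMIs, 497, 558 and 714 CPM without cycling cells and 555, 531 and 715 CPM by median of ratios. It was 634 and 770 CPM without neuron-like cells (15 and 45 days) and 611 CPM at 15 days without liver-led cells. The posterior share was 62.8, 67.1 and 78.4% at 10% mitochondrial UMIs, 60.04% (uninduced) and 76.4% (45 days) without cycling cells and 77.4% at 45 days over all barcodes. The 45-day library stayed the highest in both measures under these alternatives. Between libraries at 45 days against none, 2 members were higher and 4 lower by median of ratios, 3 and 0 with 5 CPM added, and 0 lower at a floor of 20 CPM. At 15 days against none, 2 were lower without doublet removal, without cycling cells or with 0.1 CPM added, 3 by median of ratios and 0 with 5 CPM added or a floor of 20 CPM, and 1 (HOXA5) was higher without neuron-like cells, without liver-led cells or with 0.1 CPM added. At 45 against 15 days, 1 (HOXD1) was lower without liver-led cells, without cycling cells or with no floor. In mesenchymal-like cells at 45 days against none, 3 were higher by median of ratios or without clusters 4 and 7, 0 were higher or lower with equal weights, and 0 were lower with 5 CPM added or a floor of 20 CPM. At 15 days against none, 1 was higher with 5 CPM added or a floor of 20 CPM, 4 without clusters 4 and 7 and 0 with equal weights, and 0 were lower with 5 CPM added or that floor and 1 (HOXC10) with equal weights. At 45 against 15 days, 0 were higher without clusters 4 and 7 or with equal weights. Under these alternatives only members were counted, and the share of all genes was not. Over pooled libraries, the endothelial-like posterior share was 28.1% without doublet removal, against 22.0%. The mural-like sum of 444 CPM was 376 with HOX genes kept in the clustering, 432 at resolution 0.5, 383 at resolution 2.0 and 494 without doublet removal, and its share of 49.2% was 51.4% at 0.5 and 52.9% without doublet removal. The mesenchymal-like sum of 733 CPM was 746 with HOX genes kept, 741 at resolution 0.5 and 741 at 2.0, and its share of 75.4% was 76.2% and 76.0% with HOX genes kept and at 2.0. The cycling share was 77.8% without doublet removal, the neuron-like sum and share 94.5 CPM and 41.6%, and the haematopoietic-like sum 186 CPM. The epithelial-like sum and share were 384 CPM and 52.6% at resolution 2.0, 366 CPM and 49.7% without doublet removal and 429 CPM and 58.3% without cluster 17. The liver-led values were 83.1 CPM and 55.0% at resolution 0.5. HOXA13 was found in 5.17, 6.77 and 10.1% of mesenchymal-like cells at 1000 UMIs, 16.5, 20.2 and 28.3% at 4000 UMIs and 19.9, 27.9 and 31.8% unthinned, so shares move with depth. The causes of these shifts were not tested.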
